A study of Homo sapiens with 10 samples.

Results

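The loci of SOX8 and PITX3, a pair of transcription factor genes, were examined for H3K27ac, the acetyl mark on lysine 27 of histone H3 that enhancers and promoters carry when active. Their windows were taken by position alone from a table of read counts in peak windows of the genome on build hg19. Windows starting between 950000 and 1100000 on chromosome 16 made up the SOX8 locus, with 22 windows, and windows starting between 103960000 and 104030000 on chromosome 10 made up the PITX3 locus, with 13. Together they were 35 of 42067 windows, and each of the 35 was 400 bases wide. The chromatin came from Rh30 cells, an established human alveolar rhabdomyosarcoma line, that carried the fusion protein PAX3-FOXO1-FKBP. The FKBP part is a degron, so that the ligand dTAG47 marks the fusion for destruction by the cell. The groups were DMSO, the solvent, and 500 nM dTAG47 for 2 h, 4 h and 24 h, with 2 H3K27ac libraries each, called A and B by the table. All groups carried the degron-tagged fusion, and the sources used here do not say whether the line was 1 clone. How long the cells were kept in DMSO is not labelled, and its 2 libraries served as the control at every time.

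SOX8 belongs to the SOXE family of HMG-box factors, together with SOX9 and SOX10, and acts in the neural crest, the testis and other tissues. In mouse it marks satellite cells, the stem cells of skeletal muscle. PITX3 is a homeodomain factor of the bicoid type, known for its roles in the lens and in dopaminergic neurons of the midbrain, and in mouse it is also expressed in differentiating skeletal muscle. Both have been discussed as core regulators in this muscle-like tumour, that is, as lineage factors whose own genes lie beside strong enhancers. Acetylation at such enhancers is commonly read as a sign of their activity, but it does not measure the transcription of the gene.

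No gene annotation on hg19 was at hand, and the deposited table names no genes. The gene positions used here are those of the selection rule, near 1032000 for SOX8 and near 103990000 to 104001000 for PITX3. RefSeq lists PITX3 on the minus strand, so its start lies at the upper end of that range, and distances are given from there. Negative distances lie toward lower coordinates. By gene order in RefSeq, LMF1, which matures lipases, precedes SOX8, and SSTR5, a somatostatin receptor, follows it. ELOVL3, a fatty acid elongase, precedes PITX3, and GBF1, a factor that activates ARF proteins at the Golgi, follows it. Which of these genes a window belongs to was not tested. The identity of the cells was likewise not checked against marker genes.

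The PITX3 start lay under the strongest window of its locus, and its promoter from RefSeq is shown for that reason, 250 bases before to 50 after the annotated start. It is chr10:102241463-102241762 on GRCh38.p14, minus strand, which is another build than that of the windows. Capitals mark E-boxes, the sites of bHLH factors such as the myogenic ones.
PITX3 promoter: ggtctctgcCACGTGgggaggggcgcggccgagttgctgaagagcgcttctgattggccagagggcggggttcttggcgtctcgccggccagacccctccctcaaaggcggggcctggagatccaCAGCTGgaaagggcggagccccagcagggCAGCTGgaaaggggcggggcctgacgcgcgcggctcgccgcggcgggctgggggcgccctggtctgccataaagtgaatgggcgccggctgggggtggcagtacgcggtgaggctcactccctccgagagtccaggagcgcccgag
The letters CAGCTG occurred 2 times, their first bases 125 and 96 bases before the start, and 17.9% of 35116 promoters of the same length in the table held them at least 1 time on either strand. CACGTG occurred 1 time, 241 bases before the start, and 7.26% of promoters held it. CAGCTG and CACGTG read the same on both strands, and these matches did not overlap. The GC box GGGCGG occurred 3 times (45.0% of promoters hold it) and CCAAT 1 time (34.6%). No match was found on either strand for TATAAA, for the bicoid-type core GGATTA, for the SOX core ACAAAG, for the paired-domain core GTCACG or for the forkhead core TGTTTAC. Of the bases, 71.7% were G or C, against a median of 58.7% over all promoters in the table. Matches are a description of these letters only. SOX8 is named only.

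The 8 libraries held between 3540104 and 5001652 counts in windows, and between 4002 and 5845 counts in the SOX8 windows and 1536 and 2285 in the PITX3 windows. Levels are CPM, counts relative to the library total, scaled by TMM, a method that sets most windows equal between libraries. A change common to all windows can therefore not be seen. The filter on low counts passed 20 of 22 SOX8 windows and 13 of 13 PITX3 windows. The 2 others, at 979745 and 1075423 on chromosome 16, held 3 to 13 and 6 to 12 counts per library and were not tested. Calls below come from edgeR's quasi-likelihood test over 41791 windows, with p-values adjusted by Benjamini-Hochberg over all of them and called under 0.05.

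SOX8 lay within a dense, strongly acetylated domain. Mean levels of its windows over the 8 libraries lay between 2.1 and 131.1 CPM, with a median of 52.0 CPM. Of its windows, 9 ranked at or above the 90th percentile of all windows tested. The window at 1031848 to 1032248, which holds the SOX8 position, averaged 113.7 CPM, above 98.7% of windows. A second high point on the LMF1 side, at 1020448 (-11.2 kb), averaged 116.0 CPM. The highest window of the locus, at 131.1 CPM, was not beside SOX8 but at -68.7 kb, at 962907 to 963307. Peaks of 64.5 to 72.1 CPM stood at 15.2, 37.6 and 55.6 kb on the SSTR5 side.

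At PITX3 the strongest windows lay at or near the gene start. Window means lay between 9.8 and 98.7 CPM, with a median of 28.7 CPM, and 2 of 13 windows reached the 90th percentile. These were the window at 104000871 to 104001271, which holds the PITX3 start (98.7 CPM), and its neighbour at 104001982 (81.7 CPM). The 3 strongest of its 13 windows held 50.8% of the locus counts, and the 3 strongest of 22 at SOX8 held 31.0%. Such shares depend on the number of windows, so they do not show which locus was more concentrated. The 2 windows in the interval of the gene itself, at 103994353 and 103995426, averaged 29.3 and 31.9 CPM.

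**Figure D1:**
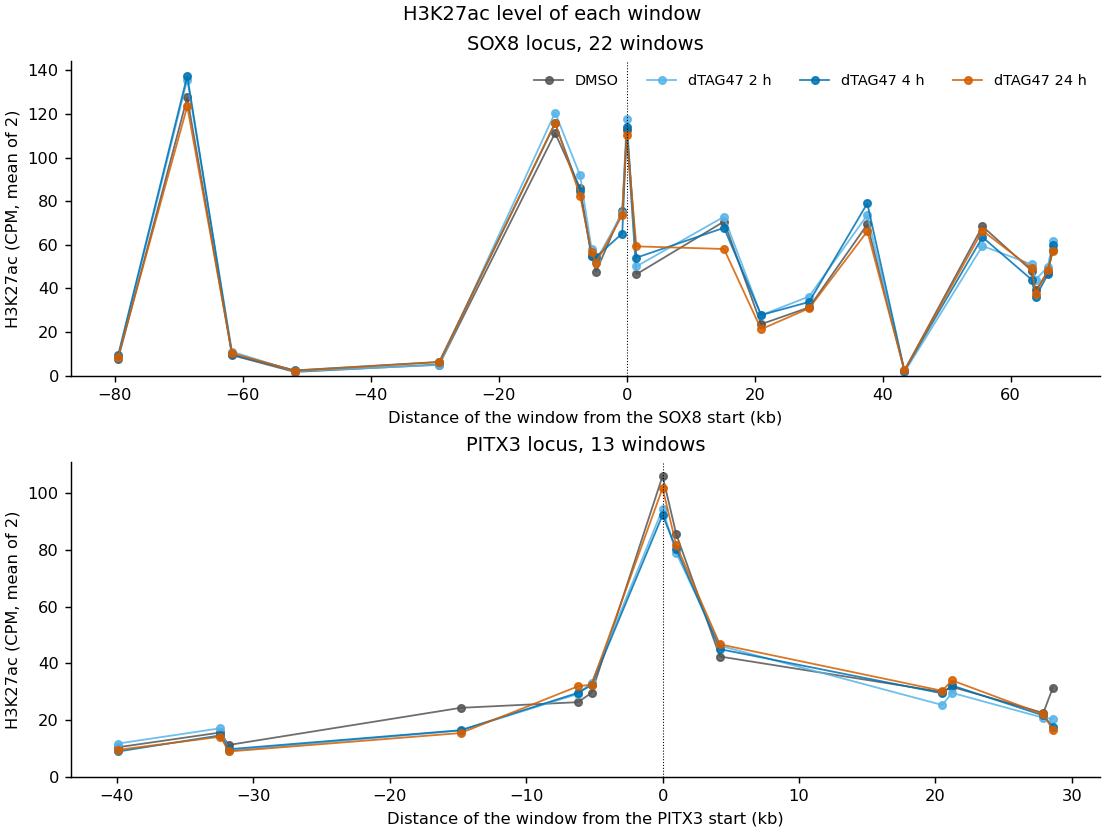
H3K27ac level (CPM, y axis, mean of 2 libraries) of each window against its distance from the gene start (kb, x axis) in DMSO and after 2 h, 4 h and 24 h of dTAG47, for the SOX8 locus above and the PITX3 locus below. The 4 groups keep the same order of high and low windows along most of each locus. DMSO lies above the dTAG47 groups at PITX3 -14.8 and 28.6 kb, and 24 h lies above the others at SOX8 1.5 kb and below them at SOX8 15.2 kb.

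The comparisons with DMSO measure the response of these loci to dTAG47, the ligand directed at the fusion. The level of the fusion was not measured in the data used. No cells without the degron were included, so an effect of the ligand itself cannot be told apart from loss of the fusion. No change was called at either gene start. The SOX8 start window measured 111.3 and 113.6 CPM in DMSO, 114.2 and 121.6 CPM at 2 h, 110.7 and 117.4 CPM at 4 h, and 104.6 and 116.0 CPM at 24 h. The 24 h libraries lay on either side of DMSO. Its log2 change at 24 h was -0.03 (SE 0.08, edgeR adjusted p = 0.873). The 95% interval ran from 0.877 to 1.09 of the DMSO level. At 2 h the interval ran from 0.946 to 1.17, and at 4 h from 0.908 to 1.13. A loss to below 0.877 of DMSO was thus outside all 3 intervals.

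The PITX3 start window measured 104.2 and 108.0 CPM in DMSO, 89.4 and 99.4 CPM at 2 h, 93.8 and 90.8 CPM at 4 h, and 99.4 and 104.2 CPM at 24 h. Both libraries of 2 h and of 4 h lay below both DMSO libraries, while a 24 h library touched the lower DMSO value. The log2 changes were -0.16 (SE 0.08, edgeR adjusted p = 0.464), -0.20 (SE 0.08, adjusted p = 0.246) and -0.06 (SE 0.08, adjusted p = 0.737) at 2 h, 4 h and 24 h, and none was called. The 95% intervals ran from 0.801 to 1.0 of the DMSO level at 2 h, from 0.774 to 0.979 at 4 h and from 0.859 to 1.07 at 24 h. The 4 h interval lay below 1, with an unadjusted p of 0.0181 in edgeR. The 2 windows in the gene interval lay slightly higher in dTAG47. At 24 h, 103994353 had a log2 change of 0.28 (SE 0.14, edgeR adjusted p = 0.23) and 103995426 one of 0.14 (SE 0.14, adjusted p = 0.619).

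Losses were called in the PITX3 locus in windows away from the PITX3 start. The clearest was 28.6 kb on the GBF1 side, at 104029563 to 104029963. It measured 29.0 and 33.8 CPM in DMSO, 20.1 and 20.7 CPM at 2 h, 14.5 and 20.8 CPM at 4 h, and 17.0 and 15.9 CPM at 24 h. All 6 dTAG47 libraries lay below both DMSO libraries. It fell at 2 h (log2 change -0.62, SE 0.15, edgeR adjusted p = 0.0137), at 4 h (-0.82, SE 0.16, adjusted p = 0.00028) and at 24 h (-0.93, SE 0.16, adjusted p = 2.51e-06). The 24 h level was 0.525 of DMSO, with an interval from 0.423 to 0.651. No further change was called between the treated times (24 h against 2 h, log2 change -0.31, edgeR adjusted p = 0.329). The call at 24 h held in all 11 alternative fits, with adjusted p up to 0.0173. The 2 h call held in 6 of 11 and the 4 h call in 8 of 11, and DESeq2's Wald test made neither. Without DMSO library B, the higher one, the 2 h and 4 h calls were lost (log2 change -0.51 and -0.71, adjusted p = 0.344 and 0.0688). The 2 h call was also lost without 2 h library A (adjusted p = 0.0851) or B (0.151), and the 4 h call without 4 h library A, the lower one (-0.59, 0.0973).

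The neighbouring window at 104028920 to 104029320, 243 bases away, measured 23.3 and 21.6 CPM in DMSO, 21.2 and 20.5 CPM at 2 h, 22.1 and 21.1 CPM at 4 h, and 23.4 and 20.7 CPM at 24 h. No change was called there, and its log2 change at 24 h was -0.02 (SE 0.16, edgeR adjusted p = 0.96). Whether the pair differed from each other was not tested.

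The other loss called in the PITX3 locus stood on the ELOVL3 side, at -14.8 kb, at 103985802 to 103986202. It measured 22.2 and 26.4 CPM in DMSO, 16.8 and 15.8 CPM at 2 h, 16.4 and 16.4 CPM at 4 h, and 17.2 and 13.6 CPM at 24 h. Again all 6 dTAG47 libraries lay below both DMSO libraries. It fell at 24 h (log2 change -0.64, SE 0.17, edgeR adjusted p = 0.00559), to 0.642 of the DMSO level with an interval from 0.507 to 0.807. At 2 h and 4 h its log2 changes, -0.58 and -0.57, missed the threshold (edgeR adjusted p = 0.0637 and 0.0578). The 24 h call held in 7 of 11 alternative fits. It was lost in DESeq2's Wald test (adjusted p = 0.302) and in a test against a 1.2-fold change (glmTreat, adjusted p = 0.0764). It was also lost without DMSO library B (log2 change -0.51) and without 24 h library B (-0.50).

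**Figure D2:**
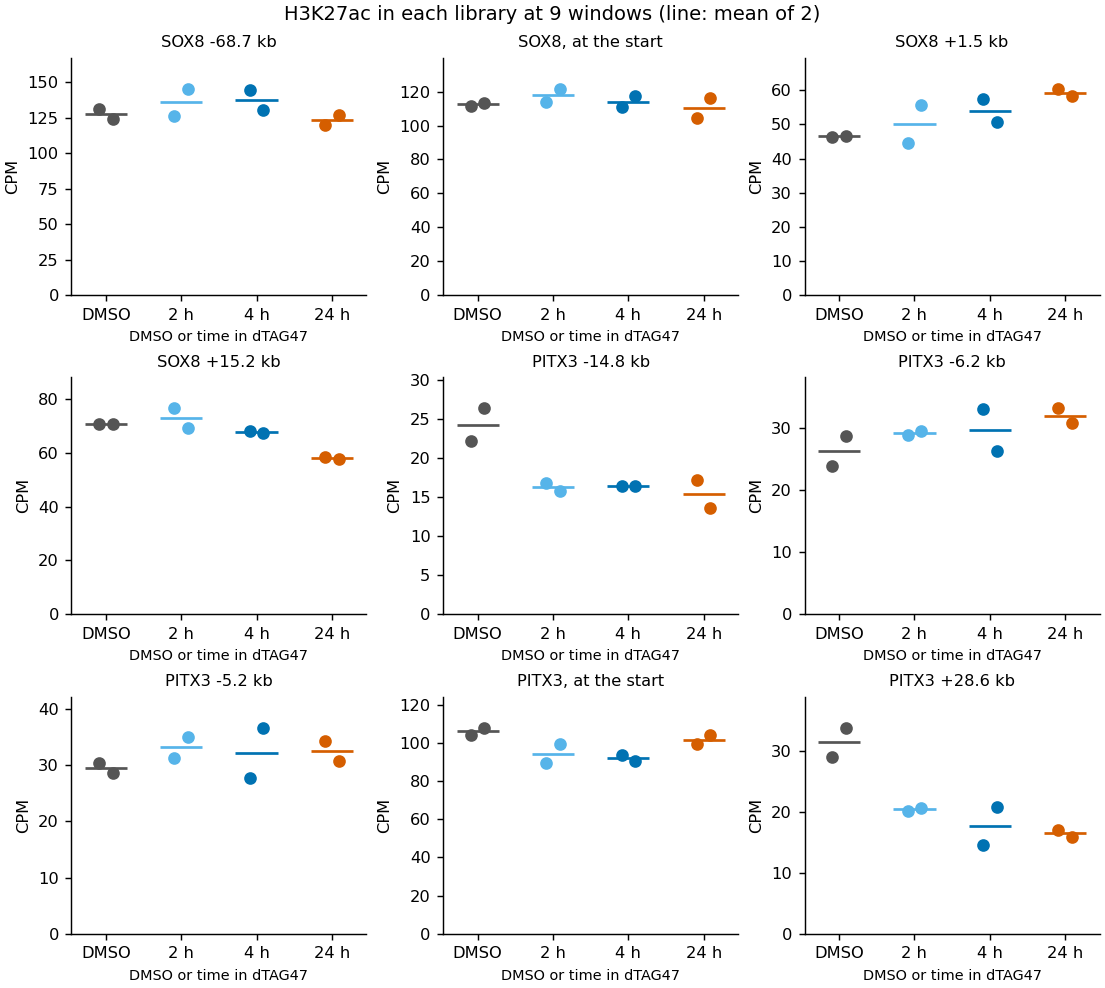
H3K27ac (CPM, y axis, from 0) in each library at 9 windows named by gene and distance from its start, with DMSO and the times in dTAG47 on the x axis. Points are libraries and lines are means of 2. All 6 dTAG47 libraries lie below both DMSO libraries at PITX3 -14.8 kb and +28.6 kb. At the PITX3 start they lie between 89.4 and 104.2 CPM, at or below the DMSO libraries at 104.2 and 108.0 CPM. At the SOX8 start they lie between 104.6 and 121.6 CPM, on either side of DMSO at 111.3 and 113.6 CPM.

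At SOX8 the calls were small, came at 24 h and went in both directions. The window at +1.5 kb, from 1033499 to 1033899, measured 46.4 and 46.6 CPM in DMSO, 44.6 and 55.7 CPM at 2 h, 57.5 and 50.6 CPM at 4 h, and 60.4 and 58.2 CPM at 24 h. Both 24 h libraries lay above both DMSO libraries, and it rose at 24 h (log2 change 0.35, SE 0.11, edgeR adjusted p = 0.0214). The window at +15.2 kb, from 1047188 to 1047588, measured 70.6 and 70.7 CPM in DMSO, 76.5 and 69.3 CPM at 2 h, 68.2 and 67.5 CPM at 4 h, and 58.6 and 57.6 CPM at 24 h. Both 24 h libraries lay below all the others, and it fell at 24 h (-0.28, SE 0.10, edgeR adjusted p = 0.0484). It also fell at 24 h against 2 h (-0.32, SE 0.09, adjusted p = 0.0264). Neither 24 h call against DMSO held when any 1 of the 4 libraries compared was left out. For the rise, the adjusted p was then 0.149 and 0.144 without DMSO library A and B, and 0.16 and 0.0605 without 24 h library A and B. For the fall it was 0.2, 0.21, 0.162 and 0.189 in the same order. The fall against 2 h was lost without 2 h library A (-0.25, adjusted p = 0.208) and after dropping either 24 h library (adjusted p = 0.137 and 0.15).

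The highest window of the SOX8 locus, at 962907, measured 131.2 and 123.9 CPM in DMSO, 126.3 and 145.3 CPM at 2 h, 144.8 and 130.3 CPM at 4 h, and 119.8 and 127.2 CPM at 24 h. The groups overlapped. Its log2 changes were 0.10, 0.11 and -0.05, with an SE of 0.08 each, and were not called (edgeR adjusted p = 0.702, 0.603 and 0.786).

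Over both loci, 1 of 33 tested windows was called lower and 0 higher at 2 h, against 1.03% and 0.194% of all windows tested. At 4 h 1 was lower and 0 higher, against 1.67% and 0.567%. At 24 h 3 were lower and 1 higher, against 4.88% and 3.46%. So few windows were called that these counts lie near what the background share alone would give. DESeq2's Wald test called 0, 0 and 1 lower windows and 0, 0 and 0 higher ones at 2 h, 4 h and 24 h, and its 1 call was the PITX3 window at +28.6 kb. At an unadjusted p under 0.05 in edgeR, 2 were lower and 0 higher at 2 h (6.42% and 4.71% of all windows). By the same rule 4 were lower and 1 higher at 4 h (7.18% and 5.88%), and 3 were lower and 2 higher at 24 h (11.2% and 9.83%). Beyond windows already described, these were 1030929 (log2 change -0.21) and 1069570 (0.19) at 4 h, both at SOX8 (edgeR adjusted p = 0.309 and 0.376).

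Over all tested windows of a locus, the called ones included, changes were mostly small. For SOX8, log2 changes ran from -0.19 to 0.23 at 2 h (median 0.10). They ran from -0.21 to 0.28 at 4 h (median 0.04) and from -0.28 to 0.35 at 24 h (median -0.02). For PITX3 the lowest changes were those of the window at +28.6 kb, the highest were 0.17, 0.17 and 0.28, and the medians were -0.11, -0.09 and -0.06, against 0.00 over all windows at each time. At 2 h, 17 of 20 SOX8 windows and 5 of 13 PITX3 windows had a positive change, against 50.8% of all windows. Both 2 h libraries lay above both DMSO libraries in 7 SOX8 and 3 PITX3 windows (19.9% of all windows), and below them in 1 and 6 (20.1%). At 4 h the counts above DMSO were 5 and 1 (21.4%) and below it 4 and 5 (21.5%). At 24 h they were 4 and 3 above (25%) and 2 and 6 below (25.1%). At all 3 times, the 95% intervals of 17 of 20 SOX8 and 9 of 13 PITX3 windows excluded a 1.5-fold change in either direction. At 24 h alone the number was 26 of 33, against 46.2% of all windows, which have lower counts on the whole.

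**Figure D3:**
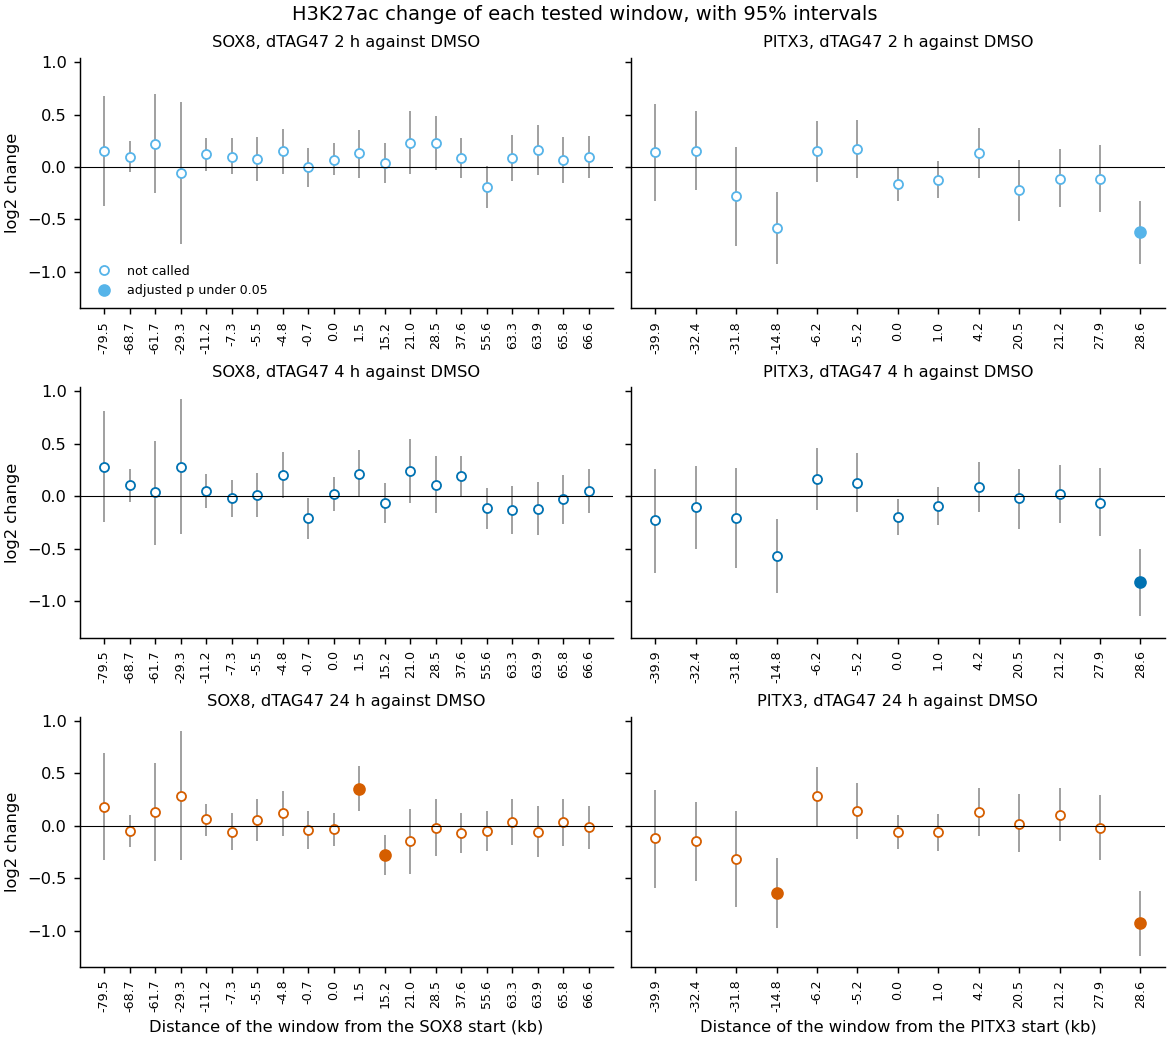
Log2 change against DMSO (y axis) of the 20 SOX8 and 13 PITX3 windows tested, in order of distance from the gene start (kb, x axis), after 2 h, 4 h and 24 h of dTAG47. Bars are 95% intervals and filled points have an edgeR adjusted p under 0.05, which are 1 PITX3 window at 2 h and at 4 h, and 2 PITX3 and 2 SOX8 windows at 24 h.

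Windows near each other were also summed into regions, with the gap usual for super-enhancers, and tested over 26144 regions. The SOX8 region, with 7 windows from 1020448 to 1033899 (13.5 kb), ranked 34 by level among all regions. It measured 524.0 and 541.1 CPM in DMSO, 542.1 and 590.5 CPM at 2 h, 542.0 and 546.3 CPM at 4 h, and 540.1 and 560.4 CPM at 24 h. At 24 h its level was 1.03 of DMSO, with a 95% interval from 0.976 to 1.09 (edgeR adjusted p = 0.583). At 2 h it was 1.07 (1.01 to 1.13, adjusted p = 0.342) and at 4 h 1.02 (0.964 to 1.08, adjusted p = 0.822).

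The PITX3 region, with 6 windows from 103985802 to 104005614 (19.8 kb), ranked 170. It measured 310.5 and 315.8 CPM in DMSO, 290.5 and 306.1 CPM at 2 h, 292.1 and 301.1 CPM at 4 h, and 310.8 and 309.5 CPM at 24 h. The ratios to DMSO were 0.954 (interval 0.891 to 1.02, edgeR adjusted p = 0.666), 0.947 (0.884 to 1.02, adjusted p = 0.526) and 0.99 (0.926 to 1.06, adjusted p = 0.916). Neither gene's region was thus called at any time, against 1.53% of regions lower and 0.474% higher at 2 h. The 4 h shares were 2% and 0.972%, and those of 24 h 5.55% and 4%. The intervals of both lay inside a 1.2-fold change.

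Among the other regions that hold windows of these loci, none was called against DMSO. The one with the called PITX3 window at 28.6 kb runs from 104021458 to 104040898, with 4 of its 5 windows in the PITX3 interval. It came closest at 2 h (log2 change -0.22, SE 0.07, edgeR adjusted p = 0.0779). It was called in 1 of 11 alternative fits, the fit without DMSO library A. Its log2 change at 2 h was -0.31 without DMSO library A and -0.12 without DMSO library B. The region from 1047188 to 1105403 on the SSTR5 side of SOX8 had 13 windows, 10 of them in the SOX8 interval, and rank 20. It measured 659.3 ± 13.3 CPM at 24 h and 719.9 ± 14.6 CPM at 2 h (SD, n = 2 each). It fell at 24 h against 2 h (log2 change -0.13, SE 0.04, edgeR adjusted p = 0.026), where 3.14% of regions were called lower and 2.2% higher. That call was lost without 2 h library B (-0.11, adjusted p = 0.211) and without 24 h library A (-0.11, 0.289) or B (-0.15, 0.0675). Among windows, 24 h against 2 h called 1 lower and 0 higher of 33, against 2.49% and 1.69% of all. At an unadjusted p under 0.05, 4 were lower and 1 higher (9.18% and 8.39%). All 5 lay at SOX8, and the 3 lower ones that were not called were 962907, 1052969 and 1060461, with log2 changes of -0.15, -0.38 and -0.25 (edgeR adjusted p = 0.271, 0.126 and 0.272). The comparison of 4 h with 2 h called 0 of the 33 windows in edgeR and in DESeq2, against 0% of all, and gave 2 lower and 0 higher by unadjusted p (3.62% and 3.3%). The comparison of 24 h with 4 h also called 0 in both, against 0.68% lower and 0.438% higher, and gave 4 lower and 0 higher by unadjusted p (7.1% and 6.36%).

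Summed over all its windows, the SOX8 locus averaged 1143.8 ± 6.4 CPM in DMSO, 1206.4 ± 57.6 CPM at 2 h, 1168.6 ± 4.6 CPM at 4 h and 1138.6 ± 25.1 CPM at 24 h (SD, n = 2 each). The 24 h libraries lay on either side of DMSO. The 2 h and 4 h groups overlapped each other and lay above DMSO and 24 h. The PITX3 locus averaged 467.0 ± 10.6 CPM in DMSO, 432.4 ± 13.7 CPM at 2 h, 430.0 ± 9.6 CPM at 4 h and 445.4 ± 10.3 CPM at 24 h (SD, n = 2 each). Both DMSO libraries, at 459.5 and 474.5 CPM, lay above all 6 dTAG47 libraries, and 2 h overlapped with 4 h and with 24 h. The sums themselves were not tested.

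The ratio of SOX8 to PITX3 counts within a library needs no scaling between libraries. It was 2.48 and 2.42 in DMSO, then 2.76 and 2.82 after 2 h, 2.75 and 2.68 after 4 h, and 2.48 and 2.64 after 24 h. The 2 h and 4 h libraries lay above DMSO, and 24 h library A lay at the level of DMSO. The mean log2 ratio was 1.426 in the 6 dTAG47 libraries and 1.293 in the 2 DMSO libraries, a difference of 0.13 (two-sided exact permutation test over 28 splits, p = 0.0714, where the smallest p possible is 0.0357). It did not pass 0.05. Of 10 alternatives only 2 passed 0.05, and the difference over all 10 ran from 0.10 to 0.16. Without 24 h library A the difference was 0.16 (exact permutation p = 0.0476, the smallest p possible with the splits left). With only the windows within 10 kb of the rule's gene positions, 6 at each locus, it was 0.10 (exact permutation p = 0.0357). For PITX3 this was counted from either end of the gene range, so the window at 103985802, called lower at 24 h, was among them.

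**Figure D4:**
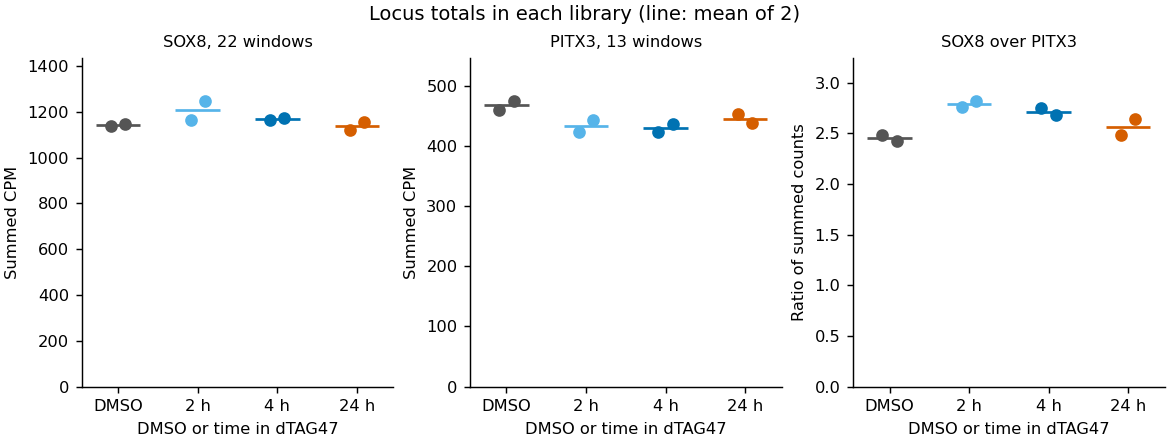
Summed H3K27ac (CPM, y axis, from 0) of the 22 SOX8 windows (left) and the 13 PITX3 windows (middle) and the ratio of their summed counts (right), by group on the x axis. Points are libraries and lines are means of 2. The SOX8 sums lie between 1120.8 and 1247.1 CPM, the PITX3 sums between 422.7 and 474.5 CPM, and the ratio between 2.42 and 2.82.

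Regions with the most similar course were sought by Pearson's r of log2 CPM with each locus sum over the 8 libraries, among 13066 regions of at least median level elsewhere in the genome. For SOX8 these were 53425304 to 53425704 on chromosome 13 (r = 0.986), 136548832 to 136549232 on chromosome 9 (0.956) and 18682603 to 18683003 on chromosome 19 (0.954), each a single window. For PITX3 they were 101782574 to 101792212 on chromosome 15 (0.965), 78193956 to 78194356 on chromosome 17 (0.964) and 9404685 to 9405085 on chromosome 3 (0.962). In all, 18 regions for SOX8 and 24 for PITX3 had r above 0.9. The libraries are shared, and these are the highest of many values.

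The windows just outside the intervals, which belong to neither locus as defined here, were, at SOX8, 940692 to 941092 with 37.5 ± 2.2 CPM at 24 h and 25.0 ± 3.7 CPM in DMSO, and 1102880 to 1103280 with 75.5 ± 0.6 CPM at 24 h and 83.5 ± 2.7 CPM in DMSO. At PITX3 they were 103955623 to 103956023 with 15.0 ± 1.9 CPM at 24 h and 20.6 ± 2.2 CPM in DMSO, and 104040498 to 104040898 with 24.9 ± 3.8 CPM at 24 h and 19.9 ± 5.2 CPM in DMSO (SD, n = 2 each). Of these, the window at 940692 was called higher at 24 h (log2 change 0.59, SE 0.14, edgeR adjusted p = 0.00137), a larger change than any called inside the SOX8 interval, and also at 24 h against 2 h (0.51, SE 0.13, adjusted p = 0.00897). No alternative fit was run on it.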

How the data were processed

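The deposited table holds the authors' raw read counts per window. The values are whole and their totals differ between libraries. Trimmomatic 0.32, Bowtie2, MACS2, DiffBind, DESeq2 and the builds hg19 and dm3 are named in the submitters' processing notes, without role or order. Duplicate removal and use of a spike-in are not given in the sources used here. Columns were matched to groups by name, and the number of columns without a group was 0. The 2 input libraries were not analysed here.

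The counts were fitted with edgeR 4.0.16 in R 4.3.3 (filterByExpr with a minimum count of 10 and total of 15, TMM, robust glmQLFit, all 4 groups in 1 model). The common dispersion was 0.00108, and the median prior degrees of freedom were 182, so p-values and intervals rest mostly on spread shared by all windows. The labels do not say that a group's libraries were separate cultures, so p-values may measure technical spread. The 2 libraries of each group differed by more than counting noise over all windows (chi-square per degree of freedom 1.06 to 1.21). Over the 35 windows the values were 0.846 in DMSO, 1.32 at 2 h, 1.13 at 4 h and 0.96 at 24 h. Whether values over so few windows differ from counting noise was not tested. Coordinates may be off by 1 base, since the table does not give its counting base.

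Windows named with all values are those that passed the test against DMSO, the highest of each locus and those at the gene positions. The window at 1020448, the neighbour at 104028920 and the region from 1047188 were chosen after their values were seen. Alternatives were DESeq2 1.42.0, other scalings, no filter, glmTreat, 2-group fits, a 5 kb stitch, and leaving out each library. The procedure was run on simulated counts drawn with the spread estimated from these same data, which cannot show whether that spread is right. The loci, the rule and the tests were chosen with earlier results of these data known.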

Additional observations from a re-analysis of the deposited data

Results flagged for a closer look

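A pair of results differed between times of treatment by a direct test. The SOX8 window at 1047188 to 1047588 was lower at 24 h than at 2 h, 58.1 ± 0.8 against 72.9 ± 5.1 CPM (SD, n = 2 each, log2 change -0.32, edgeR adjusted p = 0.0264). The region that begins with this window was lower as well, with a log2 change of -0.13 (edgeR adjusted p = 0.026). Of its 13 windows, 10 lie in the SOX8 interval. The window is part of the region, so the results are not independent. Each was called in part of its alternatives, the window in 6 of 11 and the region in 5 of 11. With 2 libraries a group, no group was large enough for a search for single outlying libraries.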

How the results depend on the processing

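Over both loci, DESeq2's Wald test called 0 lower windows at 2 h, 0 at 4 h and 1 at 24 h, 0 higher at 24 h, and 0 lower at 24 h against 2 h. A test against a 1.2-fold change (glmTreat) called 0 lower at 2 h, 1 at 24 h, 0 higher at 24 h and 0 lower at 24 h against 2 h. Leaving out 1 library gave 0 to 1 lower windows at 2 h, 0 to 1 at 4 h, 1 to 2 at 24 h, 0 higher at 24 h and 0 to 1 lower at 24 h against 2 h. The cause was not tested, but such fits have fewer samples. The ratio of the loci gave a difference of 0.10 with only windows within 10 kb of the rule's gene positions (exact permutation p = 0.0357). These included the called PITX3 window at 103985802. Leaving out 1 library gave 0.12 to 0.16, called at 0.16 without 24 h library A (exact p = 0.0476, the smallest possible there). Without a DMSO library too few splits remain for p to pass 0.05. The SOX8 and PITX3 gene regions were called in none of their 12 alternatives at any time. Signs changed only for values not called, when leaving out 1 library. These were, against DMSO, window 962907 at 2 h (-0.01 to 0.19), 1033499 at 2 h (-0.06 to 0.26), 1047188 at 2 h (-0.03 to 0.12), 1031848 at 4 h (-0.02 to 0.06) and 24 h (-0.11 to 0.04), 103995426 at 4 h (-0.09 to 0.31) and the region from 104021458 at 24 h (-0.17 to 0.02). For 24 h against 2 h they were 103985802 (-0.25 to 0.09), 103995426 (-0.12 to 0.06) and the region from 940692 (-0.09 to 0.07). Other scalings, no filter and 2-group fits kept every count of calls against DMSO within 1.5 times; total counts lost the fall at 1047188 at 24 h (adjusted p = 0.0675). With the column letters as a replicate block, 1 window was lower at 2 h, 1 at 4 h and 3 at 24 h, and no call changed; same-letter libraries did not deviate together (r from -0.033 to 0.055), and the letters are not known to be the replicate numbers. Depth limits the weak windows: 5 of them, with means of 5.6 to 10.1 CPM, had intervals that reached past a 1.5-fold change at 1 time or more.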
